A study of Mus musculus with 12 samples.

Results

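The 9 genes described here, Mbp, Mog, Mag, Mobp, Cnp, Mal, Cldn11, Opalin and Ermn, encode proteins of the myelin sheath and of mature oligodendrocytes. They were chosen by name among the 33024 gene symbols of the count table, and all 9 were found in it and passed the expression filter. RNA was sequenced from brain cortex of 12 wildtype C57BL/6 mice from the abstinence arm of the study, and the question was which molecular changes last after chronic binge-like drinking. Drinking began at 30 days of age and took place on 35 days, with 12 h of access a day. The 5 ethanol-administered mice (EtOH) were offered a bottle of 20% (v/v) ethanol next to one of water, and both bottles of the 7 controls, labelled as vehicle, held water. Both groups then spent 14 days without ethanol, went through behavioural tests and were perfused with saline before the cortex was frozen. Neither the sex of the mice nor the white matter content of the dissected tissue is given in the sources used here, and each library is labelled as 1 mouse, so that the p-values measure the spread between mice.

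Myelin is made by oligodendrocytes, which wrap their membrane around axons in many layers, so that nerve impulses travel faster. Compact myelin, where the layers are held together, is bordered by cytoplasm-filled loops and channels and by specialised membrane that faces the axon on the inside and the tissue on the outside. Precursor cells divide and migrate before they differentiate, and the genes of the sheath are switched on late in this process, under transcription factors such as Sox10, Olig2 and Myrf. Much of the myelin of the forebrain lies in the white matter tracts next to the cortex. In bulk tissue, fewer oligodendrocytes and less RNA per oligodendrocyte cannot be told apart.

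Levels are given as CPM, the count of a gene relative to the total of its library after TMM scaling, and a log2 fold change below 0 means lower in the ethanol-administered mice. Of the 9 genes, 8 fell in the ethanol-administered mice and none rose (edgeR quasi-likelihood test, Benjamini-Hochberg adjusted p under 0.05 over 16059 genes, 5 against 7 mice). Their log2 fold changes lay between -0.52 for Mobp and -0.29 for Cnp, and Opalin was the gene that did not pass, at -0.03. Over all genes tested, 11.6% were lower and 12.1% higher by the same test. The median log2 fold change was -0.42 over the 9 genes and 7.21e-05 over all genes tested. When a log2 fold change above 0.5 in size was also required, 2 of the 9 genes were lower, Mbp and Mobp, and none higher, where 4.09% of all genes were lower and 4.2% higher. That count rested on single mice, being 7 without EtOH mouse 2, 1 without control mouse 1, control mouse 3 or EtOH mouse 1, and 0 without control mouse 7, EtOH mouse 3 or EtOH mouse 4. No myelin gene separated the groups completely, while every ethanol-administered mouse lay below every control mouse for 4.96% of all genes and above for 4.84%.

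**Figure D1:**
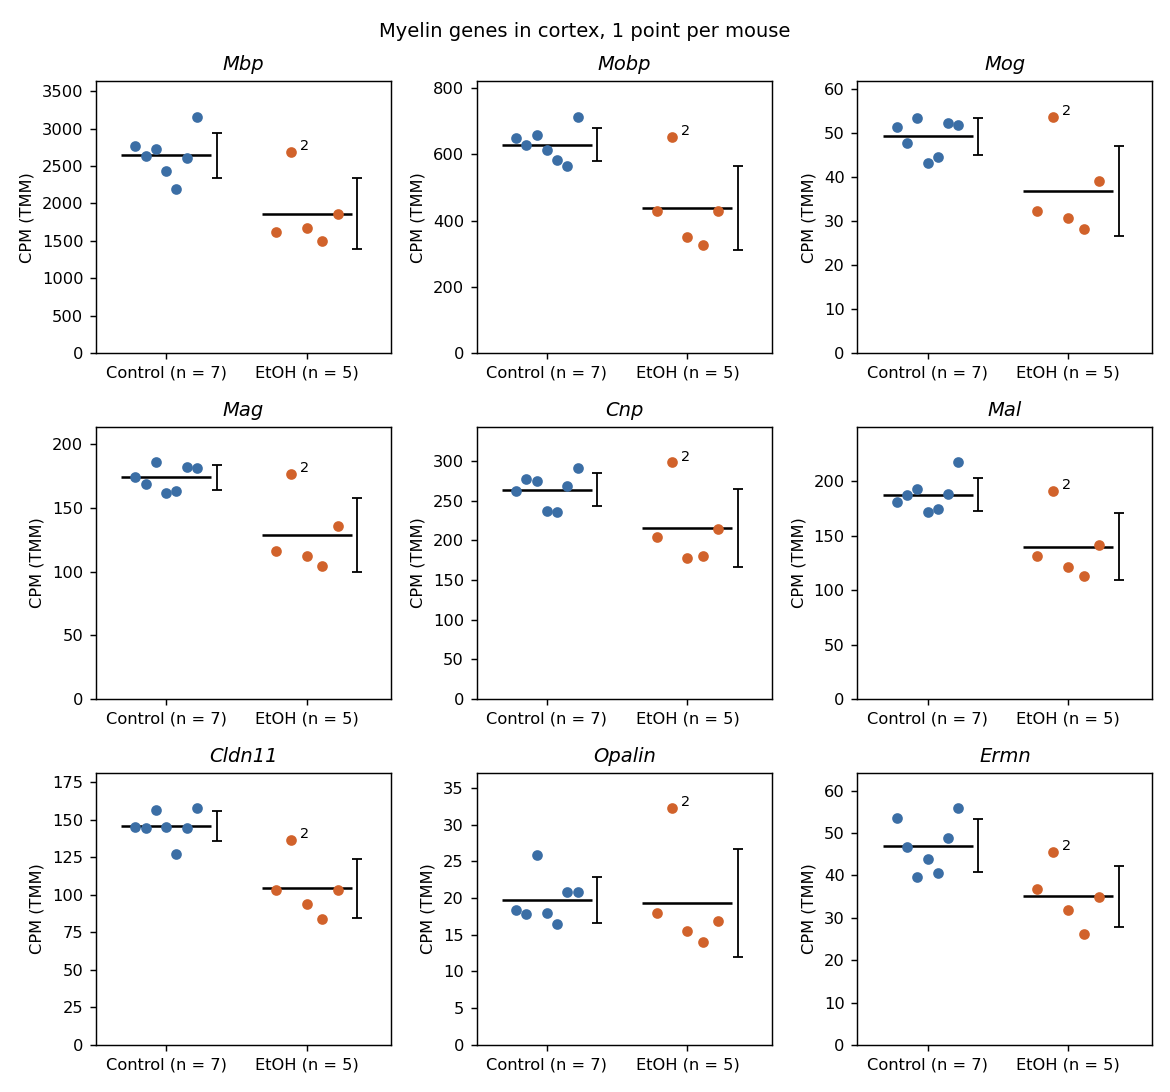
Level of each myelin gene (CPM, TMM-scaled) in 7 control (blue) and 5 ethanol-administered (orange) mice, with 1 point per mouse, a line at the group mean and a bar of ± 1 SD; each axis starts at 0, and the number 2 marks EtOH mouse 2. In 8 panels 4 of the 5 orange points lie below every blue point, and EtOH mouse 2 lies at or above 93.8% of the control mean in all 9.

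Positions are given for 8 of the 9 genes (GRCm39, GENCODE release M39), and all 9 are protein-coding genes with 3 to 11 exons in their canonical transcripts. Mobp spans chr9:119973770-120011273 and Cnp chr11:100465730-100482936, both on the plus strand, as is Cldn11 at chr3:31203900-31218495. On the minus strand, Mag spans chr7:30598464-30614474 and Mog chr17:37321521-37334350. Mal, at chr2:127475142-127498615, and Ermn, at chr2:57934641-57942882, share chromosome 2. Opalin spans chr19:41045254-41065553. For 7 of the 9, all but Mal and Cldn11, some exonic bases also belong to another annotated gene. For 6 of these 7 every overlapping gene lies on the opposite strand, and Mobp also shares bases with Gm38642 on its own strand. Whether counting used the strand of the reads is not stated, so that reads from these stretches are uncertain.

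Since 8 of the genes moved together, the 250 bases before their RefSeq start sites (GRCm38.p6) were searched for the letters of factors that act in oligodendrocytes. The RefSeq table held 10 start sites for 8 of the 9 genes, all but Mbp. Both strands were searched for ACAAAG and ACAATG (SOX10 core), CTGGCAC and CTGGTAC (MYRF core) and CAGCTG and CAGATG (OLIG2 E-boxes). No motif contains another, and CAGCTG reads the same on both strands. MYRF letters were found in 4 of the 10 windows, those of Cnp, Mog and 2 overlapping starts of Mag, and in 5.93% of 32851 windows of the same length over all genes. SOX10 letters were found in 6 of the 10 windows, again with both overlapping starts of Mag, and in 25.2% of all windows. OLIG2 letters were found in 1 window and in 25.5%. Counted by gene, MYRF letters were found for 3 of the 8 genes and SOX10 letters for 5. These are matches of letters and not measured binding. The windows below are those of the 3 genes with MYRF letters, of Mobp, which holds 6 SOX10 matches, and of Opalin, the gene that did not pass the test, each 5′ to 3′ on the strand of the gene with the matches in capitals.
Cnp (chr11:100574689-100574938): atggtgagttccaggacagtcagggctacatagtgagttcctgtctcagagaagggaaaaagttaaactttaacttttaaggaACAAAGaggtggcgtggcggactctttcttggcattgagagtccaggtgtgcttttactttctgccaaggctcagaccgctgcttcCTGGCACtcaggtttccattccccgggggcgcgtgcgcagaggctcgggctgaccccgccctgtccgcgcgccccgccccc
Mag (chr7:30914864-30915113): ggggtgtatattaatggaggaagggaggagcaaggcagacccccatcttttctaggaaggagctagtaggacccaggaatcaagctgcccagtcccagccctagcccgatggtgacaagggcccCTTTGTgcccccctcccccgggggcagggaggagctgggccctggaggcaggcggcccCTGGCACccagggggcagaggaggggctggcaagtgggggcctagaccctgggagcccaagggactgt
Mog (chr17:37023399-37023648): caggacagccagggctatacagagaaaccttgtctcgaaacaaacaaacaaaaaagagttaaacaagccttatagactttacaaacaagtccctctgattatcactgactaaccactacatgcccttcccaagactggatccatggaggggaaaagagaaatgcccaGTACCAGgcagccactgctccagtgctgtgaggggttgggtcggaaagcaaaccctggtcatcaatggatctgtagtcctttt
Mobp (chr9:120149492-120149741): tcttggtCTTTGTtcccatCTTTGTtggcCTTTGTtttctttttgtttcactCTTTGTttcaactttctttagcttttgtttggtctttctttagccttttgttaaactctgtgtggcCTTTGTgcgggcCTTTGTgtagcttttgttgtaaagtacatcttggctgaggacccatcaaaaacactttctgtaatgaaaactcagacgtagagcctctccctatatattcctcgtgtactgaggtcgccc
Opalin (chr19:41077114-41077363): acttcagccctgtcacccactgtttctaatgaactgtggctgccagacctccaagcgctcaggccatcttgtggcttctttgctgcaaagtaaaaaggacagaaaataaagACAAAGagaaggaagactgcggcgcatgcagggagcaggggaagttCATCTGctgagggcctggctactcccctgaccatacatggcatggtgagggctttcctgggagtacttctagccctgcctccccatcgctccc
With positions counted back from the start site, the letters CTGGCAC begin at -81 in Cnp and at -68 in Mag. In Mog the letters CTGGTAC were found on the other strand at -83. The 6 matches of Mobp are ACAAAG on the other strand, read as CTTTGT here, from -243 to -120. Opalin holds ACAAAG at -139 and CAGATG on the other strand at -93. The windows of Mal and Cldn11 hold none of the letters searched.

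Mbp, the basic protein that holds the cytoplasmic faces of compact myelin together, was the most abundant of the 9, with 61.3% to 65.2% of their summed CPM in the controls and 60.1% to 64.1% in the ethanol-administered mice. In the controls its level ran from 2193 to 3160 CPM, with a median of 2628. The 5 ethanol-administered mice had 1614, 2687, 1667, 1496 and 1855 CPM. Mouse 2 thus lay above the control median, and the other 4 lay below every control. The control mean was 2645 ± 298 CPM (SD, n = 7) and the EtOH mean 1864 ± 478 CPM (SD, n = 5), and Mbp fell by 0.50 on the log2 scale (SE 0.12, edgeR adjusted p = 0.00568). Mobp, a smaller basic protein of compact myelin, had between 565.0 and 714.2 CPM in the controls (median 627.0). The ethanol-administered mice had 429.8, 652.2, 351.4, 327.5 and 430.7 CPM, again with mouse 2 among the controls and 4 mice below all of them. Its log2 fold change of -0.52 (SE 0.13, edgeR adjusted p = 0.00656) was the farthest from 0 of the 9.

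Mag and Mog are cell surface proteins of the immunoglobulin family, the former on the innermost membrane facing the axon and the latter on the outermost face of the sheath. Mag had between 161.9 and 185.8 CPM in the controls (median 174.4) and 115.9, 176.8, 112.0, 104.8 and 135.6 CPM in the ethanol-administered mice. For Mog the controls lay between 43.1 and 53.44 CPM (median 51.5), and the ethanol-administered mice had 32.22, 53.76, 30.8, 28.25 and 39.22 CPM. Mouse 2 exceeded every control for Mog and lay within their range for Mag, and the remaining 4 mice were below every control for both. Mag fell by 0.43 on the log2 scale (SE 0.10, edgeR adjusted p = 0.00494). Mog fell by 0.42 (SE 0.12, edgeR adjusted p = 0.0209), and it no longer passed without EtOH mouse 1, 3 or 4, where edgeR gave adjusted p-values of 0.0619, 0.0603 and 0.0613.

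Cnp encodes the cyclic nucleotide phosphodiesterase of the cytoplasmic channels of myelin. Its level was 235.9 to 290.8 CPM in the controls (median 268.9) and 204.4, 298.4, 178.1, 180.8 and 214.9 CPM in the ethanol-administered mice. Mouse 2 had the highest level of all 12 mice, while the other 4 again lay below every control. The mean log2 fold change of -0.29 (SE 0.10) was close to the threshold, with an edgeR adjusted p of 0.0497. With 1 mouse left out in turn, Cnp passed in 2 of 12 fits, those without control mouse 5 (adjusted p = 0.0288, edgeR) and without EtOH mouse 2 (adjusted p = 0.000255, edgeR).

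Mal, a membrane proteolipid of lipid rafts, and Cldn11, the claudin of the tight junction strands between myelin layers, both fell. Mal ran from 171.9 to 217.1 CPM in the controls (median 186.8), and the ethanol-administered mice had 131.5, 191.2, 121.1, 113.1 and 141.0 CPM. The controls had between 127.4 and 157.7 CPM of Cldn11 (median 144.9), against 103.3, 136.7, 93.92, 83.8 and 103.5 CPM upon ethanol administration. Mouse 2 was the highest ethanol-administered mouse for both and stayed inside the control range. The log2 fold change was -0.42 for Mal (SE 0.10, edgeR adjusted p = 0.0063). Cldn11 had the smallest p of the 9 genes, with a log2 fold change of -0.48 (SE 0.09, edgeR adjusted p = 0.00113), and passed in all 12 fits that left out 1 mouse.

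Opalin and Ermn mark mature oligodendrocytes, the former as a transmembrane glycoprotein and the latter as a cytoskeletal protein. Ermn had 39.67 to 55.87 CPM in the controls (median 46.66) and 36.83, 45.55, 31.87, 26.06 and 34.93 CPM in the ethanol-administered mice. Ermn fell by 0.42 on the log2 scale (SE 0.11, edgeR adjusted p = 0.0128), and mouse 2 was the only one of the 5 inside the control range. Opalin behaved otherwise, with 16.49 to 25.91 CPM in the controls (median 18.41) and 18.01, 32.23, 15.44, 13.99 and 16.81 CPM in the ethanol-administered mice. Here mouse 2 lay above every control, mice 1 and 5 within their range and mice 3 and 4 below it. The log2 fold change of -0.03 (SE 0.17, edgeR adjusted p = 0.913) had a 95% interval from -0.39 to 0.32, which holds the value of Cnp (-0.29) and none of those of the other 7 genes. The 95% intervals of those genes overlap that of Opalin, and no difference between genes was tested. Without mouse 2 the log2 fold change of Opalin was -0.30 (edgeR adjusted p = 0.06).

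An exact two-sided permutation test of mean log2 CPM over all splits of the 12 mice gave p between 0.00253 for Cldn11 and 0.0316 for Cnp for the 8 genes that fell, and p = 0.691 for Opalin, where 0.00126 is the smallest p that 5 against 7 mice allow; these values were not adjusted for testing 9 genes.

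Within the ethanol group 1 mouse stood apart. EtOH mouse 2 had 3 of the 9 genes above every control, namely Mog, Cnp and Opalin, and the remaining 6 within the control range. Mice 3 and 4 had all 9 below every control, and mice 1 and 5 had 8 below, with Opalin as the exception. Relative to the control mean, the median over the 9 genes was 70.2% in mouse 1, 102% in mouse 2, 64.5% in mouse 3, 57.5% in mouse 4 and 75.3% in mouse 5. In the controls this median lay between 89.4% (mouse 5) and 110% (mouse 7). The coefficient of variation was accordingly 19.1% to 38.3% in the ethanol group and 5.44% to 16.0% in the controls. The edgeR fit used a common spread estimate for both groups, so that its p-values do not allow for this difference. Whether the calls hold with a separate spread for each group was not tested. With mouse 2 left out, all 9 log2 fold changes were more negative, from -0.30 for Opalin to -0.72 for Mobp, and the same 8 genes passed the test.

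**Figure D2:**
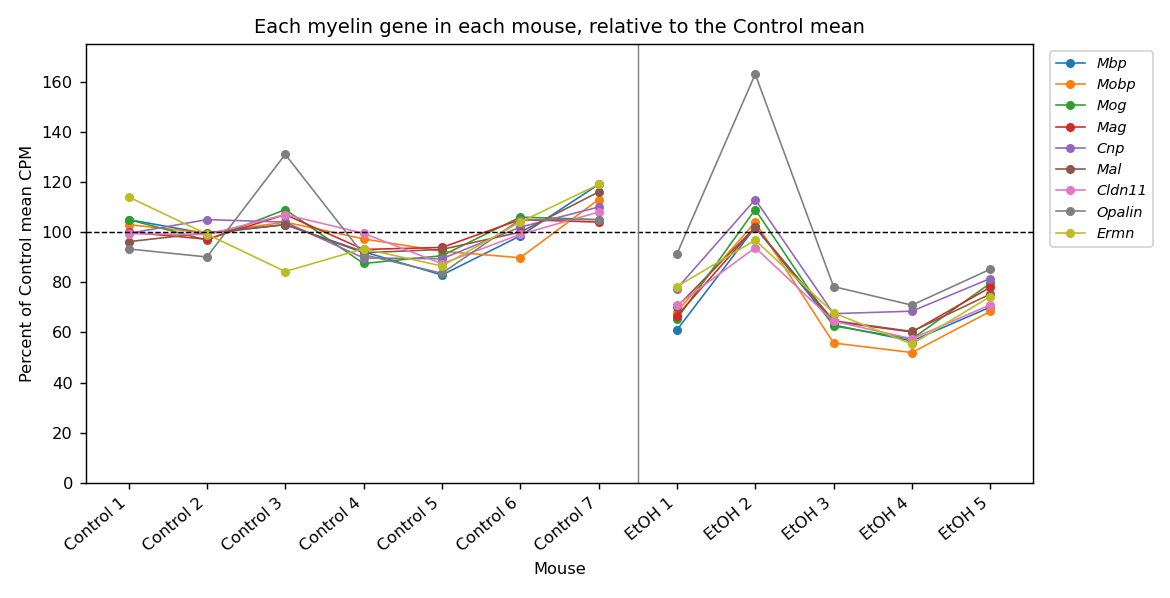
CPM of the 9 myelin genes in each mouse as a percentage of the control mean of that gene, with 1 colour per gene, lines that join the points of a gene within a group and a dashed line at 100%. Mice EtOH 1, 3, 4 and 5 lie below 100% for every gene, between 52.0% and 91.3%, and EtOH mouse 2 reaches 163% for Opalin.

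The 9 genes moved together from mouse to mouse. After the group means were taken off, the 36 pairs of genes had Pearson's r of log2 CPM over the 12 mice from 0.596 for Opalin and Ermn to 0.993 for Mag and Mog, with 0.911 as the median. Without EtOH mouse 2, which lies farthest from its group mean, the median was 0.734 and the lowest 0.214 (11 mice). These are descriptions, since the genes share libraries, depth and scaling. Ratios within a mouse showed where they moved apart. Per 1000 CPM of Mbp, Opalin had a mean of 7.48 CPM in the controls (6.57 to 9.52) and of 10.2 CPM in the ethanol-administered mice (9.06 or more in each). For Cnp the same ratio had a mean of 100 (92 to 108) and of 116 (107 to 127). Both ratios overlapped between the groups by a narrow margin. For the 6 other genes the ethanol range overlapped the control range more widely, and the differences between the ratios were not tested.

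Levels were compared between genes per kilobase of the canonical transcript. In the controls Mbp stood at 1230 CPM per kb and Mobp at 402, above Cnp at 112 and Mag at 86.7. Mal and Cldn11 followed at 67.3 and 67.2 CPM per kb and do not differ beyond their spread, then Mog at 26.2, Ermn at 11.4 and Opalin at 7.58. In the ethanol-administered mice the order was the same, from 865 CPM per kb for Mbp to 8.5 for Ermn and 7.41 for Opalin. The values of the neighbours Mag and Mal, Mal and Cldn11, and Ermn and Opalin overlap between mice there. Neighbours were measured in the same mice, and their differences within a mouse were not tested here or below. Per kilobase of all annotated exons the values were lower, at 271 for Mbp in the controls, followed by Mobp (70.1), Mal (66.3) and Cnp (65.2), where neighbours differ by less than their spread, and then by Cldn11 (59.2). Together the 9 genes took 0.36% to 0.476% of all counts in the controls and 0.238% to 0.429% in the ethanol-administered mice.

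The remaining genes of the oligodendrocyte lineage were taken from 6 lists of 72 genes in all, of which 31 fell and 7 rose. Over all genes tested, 11.6% were lower and 12.1% higher, and the 7 that rose lie below the latter share. The 14 other myelin membrane genes had 5 lower and none higher (median log2 fold change -0.24). Gjb1, a connexin of the gap junctions between myelin layers, fell by 0.76 on the log2 scale (SE 0.16, edgeR adjusted p = 0.00231), and the adaptor gene Plekhb1 fell by 0.47 (edgeR adjusted p = 0.00309). Of the 9 myelin lipid enzymes 5 were lower (median -0.28), among them the fatty acid elongase gene Elovl7 at -0.31 (edgeR adjusted p = 0.0162) and the fatty acid hydroxylase gene Fa2h at -0.39 (edgeR adjusted p = 0.0194).

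Among 22 other genes of mature oligodendrocytes, 14 were lower and none higher (median -0.32), where 11.6% of all genes were lower. Every ethanol-administered mouse lay below every control for 5 of the 22 genes, and for 4.96% of all genes. The farthest from 0 was Klk6, a secreted serine protease, with a control mean of 4.07 ± 0.711 CPM (SD, n = 7) and an EtOH mean of 1.20 ± 0.534 CPM (SD, n = 5). It fell by 1.76 on the log2 scale (SE 0.22, edgeR adjusted p = 1.49e-05). The controls had 3.273 to 5.208 CPM, and the ethanol-administered mice 1.02, 2.147, 0.8348, 1.032 and 0.9728 CPM. In contrast to the 9 myelin genes, EtOH mouse 2 was also below every control here. The same held for Carns1, the carnosine synthase gene (7.809 CPM in mouse 2, control minimum 8.477), for Anln, an actin-binding protein gene (24.83 against 26.53), and for Apod, a lipid carrier gene (113.2 against 125.6). Ndrg1 was the last of the 5 genes without overlap. For Carns1, Anln and Apod the log2 fold changes were -0.67, -0.58 and -0.51 (edgeR adjusted p = 0.000344, 0.000686 and 0.00378). Hapln2, which encodes a link protein of the matrix at nodes of Ranvier, and Ppp1r14a, a phosphatase inhibitor gene, fell by 0.65 and 0.61 (edgeR adjusted p = 0.000522 and 0.0124). Enpp2, named after its values were seen, was the only gene of this list with a positive log2 fold change, at 0.26 (edgeR adjusted p = 0.356). It had 541.3 CPM in EtOH mouse 3, the mouse with the highest level of Ttr, a choroid plexus gene (911.2 CPM), and 181.0 to 267.6 CPM in the other 4.

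Of the 9 transcription factor genes of the lineage, 4 were lower and none higher (median -0.21). Myrf, the regulator that myelin gene expression requires, fell by 0.34 (SE 0.09, edgeR adjusted p = 0.00974), and Olig2, needed for oligodendrocyte specification, by 0.32 (SE 0.09, edgeR adjusted p = 0.0121). For Sox10 the difference was -0.21 on the log2 scale, which did not pass (edgeR adjusted p = 0.105). The 8 genes of newly formed oligodendrocytes held 1 lower and 2 higher (median 0.15), where 11.6% of all genes were lower and 12.1% higher. The lower one was Bcas1, a gene of early myelinating cells, at -0.55 (SE 0.15, edgeR adjusted p = 0.0125), with 136.7 CPM in EtOH mouse 2 and 62.78 to 85.27 CPM in the other 4, against 103.6 to 141.8 CPM in the controls. One of the higher genes was Rras2, a small GTPase gene, at 0.27 (edgeR adjusted p = 0.0129).

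Among 10 genes of oligodendrocyte precursors, 2 were lower and 5 higher (median 0.06). Pdgfra, the growth factor receptor that defines these cells, had a control mean of 44.4 ± 3.79 CPM (SD, n = 7) and an EtOH mean of 52.0 ± 4.68 CPM (SD, n = 5) and rose by 0.23 on the log2 scale (edgeR adjusted p = 0.0253), and Pcdh15, a protocadherin gene, rose by 0.47 (SE 0.10, edgeR adjusted p = 0.00203) with every ethanol-administered mouse above every control. Cacng4, which encodes an auxiliary subunit of AMPA receptors, had a control mean of 69.2 ± 11.7 CPM (SD, n = 7) and an EtOH mean of 32.8 ± 2.65 CPM (SD, n = 5) and fell by 1.08 (SE 0.11, edgeR adjusted p = 1.22e-06). Whether the lists differ from each other was not tested.

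**Figure D3:**
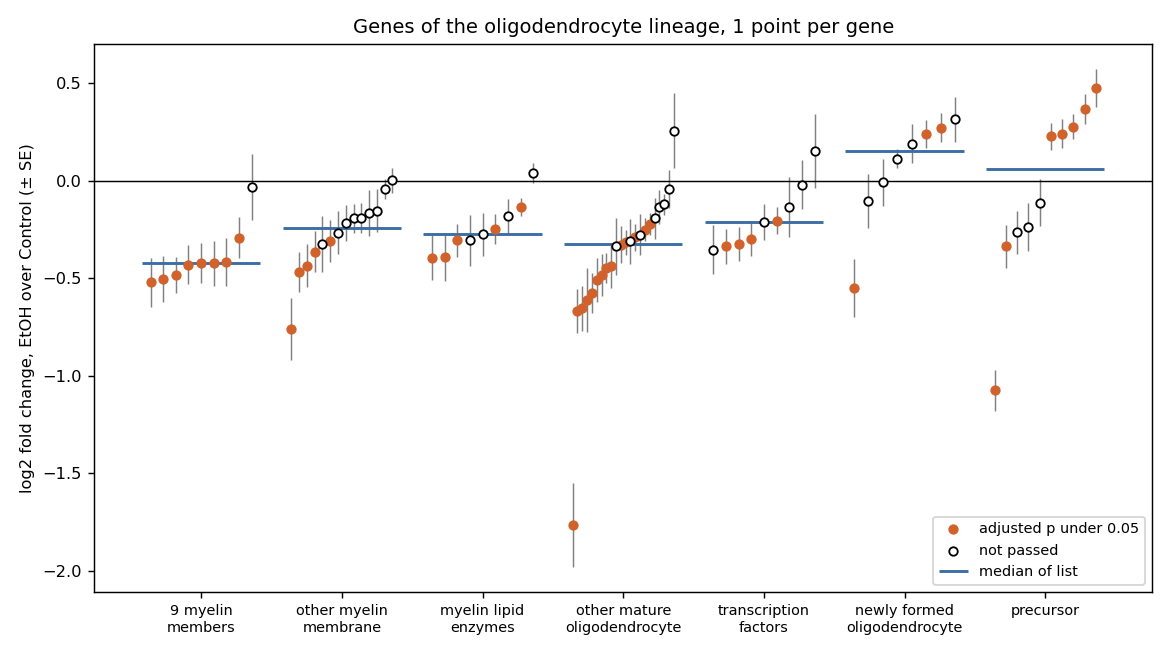
Log2 fold change (EtOH over control, ± SE) of each gene of the 9 myelin genes and of 6 further lists of the oligodendrocyte lineage, with filled points for genes with an edgeR adjusted p under 0.05, open points for the others and a blue line at the median of a list. Medians lie at -0.42 for the 9 myelin genes, between -0.32 and -0.21 for the next 4 lists, and at 0.15 and 0.06 for the newly formed and precursor lists.

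Among the 10 genes whose levels followed the mean of the 9 most closely over the 12 mice, after group means were taken off, were Adssl1 (r = 0.962), 1700047M11Rik (r = 0.959), Klhl33 (r = 0.944), Prr18 (r = 0.935), Gatm (r = 0.932), Pde8a (r = 0.924), Tspan2 (r = 0.923), Il33 (r = 0.921) and Pigz (r = 0.916). Tspan2 and Il33 are on the lists above. Adssl1, a gene of adenylosuccinate synthesis, fell by 0.72 on the log2 scale (edgeR adjusted p = 6.37e-05) and Prr18 by 0.34 (edgeR adjusted p = 0.00886), while Tspan2 (-0.15), Il33 (-0.19), Gatm (-0.22), Pde8a (-0.17), Klhl33 (-0.35), Pigz (-0.27) and 1700047M11Rik (-0.17) did not pass. Without EtOH mouse 2 the r of these 10 genes lay between 0.745 and 0.972. Most unlike the 9 were Tmem132e (r = -0.968), the Integrator subunit gene Ints3 (r = -0.964) and the synaptotagmin gene Syt17 (r = -0.951). Over whole lists, the median r with the mean of the 9 was 0.754 for the other mature oligodendrocyte genes, -0.213 for the precursor genes, -0.304 for the striatal genes, -0.564 for the 5 choroid plexus genes and -0.00363 for all other genes tested.

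Total counts were 31768079 to 40690226 in the controls and 32048725 to 42183031 in the ethanol-administered mice, and 3 counts correspond to at most 0.0962 CPM, far below the lowest of the 9 genes (13.99 CPM, 461 counts of Opalin in EtOH mouse 4). The 2 deepest libraries, control mouse 5 and EtOH mouse 1, include the lowest summed CPM of the 9 genes among controls (3578). Without both, 6 of the 9 genes were lower, Mog (adjusted p = 0.0503, edgeR) and Cnp (adjusted p = 0.078, edgeR) no longer passing.

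Genes of other cells and regions also moved between the groups, where 11.6% of all genes tested were lower and 12.1% higher. All 15 striatal neuron genes were lower, among them Rgs9 and Drd2, which had the smallest p-values of the list (log2 fold changes -3.13 and -4.97), with a summed level of 1281 to 2857 CPM in the controls and 291.5 to 349.2 CPM in the ethanol-administered mice. Of 10 hippocampal genes, 8 were higher and 1 lower, with the smallest p-values for Fibcd1 and C1ql2 (log2 fold changes 2.62 and 4.29), and their summed level was 469.6 to 528.4 and 668.1 to 733.2 CPM. Within the groups the striatal and myelin sums did not run in parallel in every mouse. Control mouse 5, with the next to lowest striatal sum of the controls (1780 CPM), had their lowest myelin sum (3578 CPM). The control with the lowest striatal sum, mouse 7 (1281 CPM), had the highest myelin sum (4849 CPM), and EtOH mouse 2, with 4274 CPM for the 9 myelin genes, had a striatal sum of 299.1 CPM, amid the 291.5 to 349.2 CPM of mice whose myelin sums were 2375 to 2972 CPM. Cortical excitatory neuron genes, the markers of the labelled tissue, summed to 2617 to 3165 CPM in the controls and 2544 to 3107 CPM in the ethanol-administered mice. Most of this sum was Slc17a7, named after its values were seen, with means of 1955 CPM in the controls and 1906 CPM in the ethanol-administered mice. Of the 10 genes, 3 were lower and 4 higher, among them Foxp2 (-1.21) and Fezf2 (0.60).

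Of the microglia genes 6 of 10 were lower and none higher, among them C1qb (-0.52) and Tmem119 (-0.32), and their sum was 359.5 to 400.1 against 304.9 to 330.5 CPM. Astrocyte genes had 4 of 10 higher and 1 lower, among them Gfap (0.77) and S100b (-0.39), and their sum was 3047 to 3580 against 3409 to 3931 CPM. Endothelial genes had 1 of 8 lower, Ly6c1 (-0.64), close to the share of 11.6% over all genes. Slco1a4 was next (-0.12, edgeR adjusted p = 0.221), and the endothelial sums were 246.9 to 272.6 and 233.4 to 255 CPM. Of 6 choroid plexus genes, 5 were tested and 3 of these were higher, and the sum over all 6 varied from 6.318 to 19.51 CPM in the controls and was 107.1, 12.48, 947.7, 260.7 and 4.134 CPM in the ethanol-administered mice, so that the highest 3 values were those of mice 1, 3 and 4. These mice also had the 3 lowest myelin sums (2686, 2601 and 2375 CPM), while mouse 5, with the lowest choroid plexus sum, had a myelin sum of 2972 CPM, also below every control. None of 5 red blood cell genes passed (Hbb-bt 0.85, edgeR adjusted p = 0.408), with sums of 9.185 to 127.8 and 9.74 to 74.08 CPM. Of 5 Schwann cell genes, which mark peripheral myelin, 2 were expressed enough to be tested and none passed, the sum over all 5 was at most 3.189 CPM, and Pmp2 had no count in any mouse. The part of these other cells and regions in the fall of the myelin genes was not tested.

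**Figure D4:**
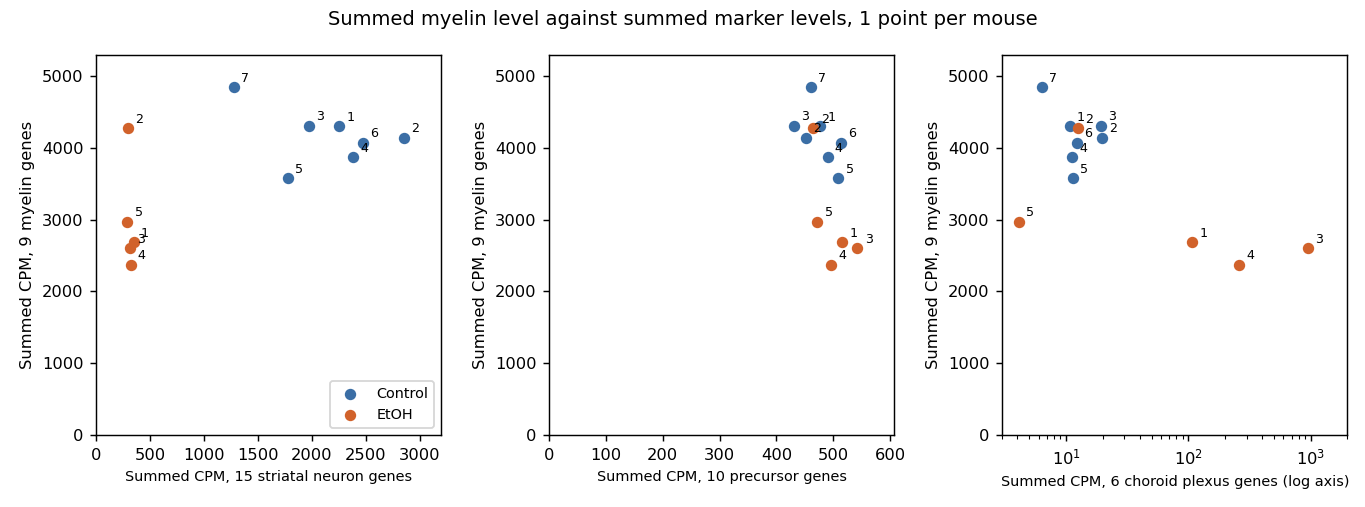
Summed CPM of the 9 myelin genes (vertical axis) against summed CPM of 15 striatal neuron genes, 10 precursor genes and 6 choroid plexus genes (horizontal axes, the last one logarithmic), with 1 point per mouse, blue for control and orange for ethanol-administered, and mouse numbers beside the points. EtOH mouse 2 lies at 4274 CPM on the myelin axis, among the controls, and at 299.1 CPM on the striatal axis, with the other ethanol-administered mice.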

How the data were processed

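RNA from frozen cortex of 12 mice was sequenced by BGI. Per the labels and the study's methods, reads were inspected with FastQC 0.11.9, mapped by STAR (GRCm39, Gencode Release 28) and assigned to genes by featureCounts. Strand and multi-mapping settings are not given in the sources used here. The authors deposited expected counts per gene symbol without normalization, and 61 symbols hold values that are not whole. Columns were matched to mice by name, and values were rounded to whole numbers.

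Genes kept by filterByExpr were scaled by TMM and tested in R 4.3.3 with edgeR 4.0.16 (quasi-likelihood F test), and p-values were adjusted by the Benjamini-Hochberg method over 16059 genes. The standard error is the size of the log2 fold change divided by the square root of F. CPM are TMM-scaled, and log2 CPM used a prior count of 2. Within groups, libraries differed by more than sampling noise, with a chi-square of at least 7.84 per degree of freedom. Alternatives were DESeq2 1.42.0, limma voom 3.58.1, other scaling factors and filters, the replicate number as a block, a library size without striatal, hippocampal and blood genes, and mice left out. The edgeR, DESeq2 and voom fits were tested on simulated data.

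The members, the lists and the rule for named genes were chosen with earlier results of these data known. Named were all 9 members, lineage genes past both thresholds (or the 2 with the smallest p in a list), Sox10, Olig2, Myrf and Pdgfra, the 10 genes most like and the 3 most unlike the mean of the members, and up to 2 genes in each list of other cells. One gene that the rule names is not reported here.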

Additional observations from a re-analysis of the deposited data

Results flagged for a closer look

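Single mice stood apart in 4 of 34 comparisons of a gene, list sum or library total within a group, where chance gives about 1.7. Opalin in EtOH mouse 2 (32.23 CPM, next 18.01) and the summed CPM of the newly formed oligodendrocyte list in the same mouse (388.1, next 341.7) were the highest of their group. Control mouse 5 had 40690226 total counts (next 32356909) and EtOH mouse 1 had 42183031 (next 33313165).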

How the results depend on the processing

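The number of myelin genes passing the test was 8 lower and none higher under RLE and upper quartile factors, both other filters, DESeq2, limma voom and the replicate block, and 6 without the deepest library of each group. With 1 mouse left out it lay between 6 and 8 lower and at 0 higher. The count that also requires the fold minimum of 0.5 (log2) was less firm, being 1 of 9 under the replicate block, 0 with a fold minimum of 1, and between 0 and 7 with 1 mouse left out; Mbp lies at -0.50 and Cldn11 at -0.48, close to the minimum of 0.5. For the 6 other lineage lists, between 22 and 45 genes were lower and between 4 and 8 higher with 1 mouse left out, where 22 was reached without EtOH mouse 4, 45 without EtOH mouse 2 and 4 without EtOH mouse 1. Over all genes, 1483 to 2388 were lower and 1574 to 2284 higher. The cause of these changes was not tested. Opalin, which never passed, had log2 fold changes from -0.30 to 0.06 with 1 mouse left out. Leaving the striatal, hippocampal and blood genes out of the library size changed no call of the 9 genes. Replicate numbers are shared between groups of different mice; deviations of same-numbered mice had correlations between -0.108 and 0.0182, and 1 of 5 correlated best with its own number, so they were not treated as pairs. All 9 genes had at least 461 counts in every mouse, and whether depth affects their calls was not tested. The ethanol group holds 5 mice, 1 of them at control levels, which limits the precision.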
